A study of Oryza sativa with 6 samples.

Results

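Rice defence loci were compared between leaves of DGP1-OE1, an overexpressor of DGP1, and leaves of the wild type ZH11. None of the 6 that could be measured passed the test for a difference between the genotypes, and only 0.356% of all tested genes did. With so few calls, the lack of a call does not set these 6 genes apart from the rest. The list held 9 locus IDs with their gene names, and 6 of them have a row among the 19696 rows of the FPKM table. These are NPR1 (Os01g0194300), WRKY45 (Os05g0322900), WRKY62 (Os09g0417800), WRKY76 (Os09g0417600), PBZ1/PR10a (Os12g0555500) and PR10b (Os12g0555200). No row carries the IDs of PR1a (Os07g0129200), PR1b (Os01g0382000) or JIOsPR10 (Os03g0300400), and these 3 genes were not analysed here. A missing row is not a level of 0.

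The data comprised 3 libraries of DGP1-OE1 and 3 of ZH11, a japonica rice variety, all from leaves of plants 3 weeks old raised in 1/2MS medium. All sample titles also carry the label Ck, whose meaning is not given. The labels give no pathogen and no defence chemical for either group. They name 1 overexpressor line and give neither its promoter nor whether a library came from 1 plant or a pool, so the p-values rest on variation between libraries that may be purely technical. Values are FPKM, fragments scaled to transcript length and library size. Levels of different genes can therefore be set side by side, but sequencing depth is not known. The sum of FPKM was between 686327 and 752617 per library. The table holds IDs without names, so neither the level of DGP1 nor leaf markers were checked in these libraries.

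When a rice leaf meets a pathogen or salicylate, a regulatory layer acts on genes for pathogenesis-related (PR) proteins. In rice the salicylate signal is known to run along separate NPR1 and WRKY45 branches. NPR1 is a transcriptional co-regulator, and WRKY45 is a DNA-binding factor needed for resistance primed by chemical inducers. WRKY62 and WRKY76 belong to the same factor family and are known mostly for holding defence genes down when overproduced. PBZ1 was named for its induction by probenazole, a chemical that protects rice against blast, and with PR10b it belongs to the PR10 family of small intracellular proteins. Mean levels over all 6 libraries were 95.4 FPKM for PBZ1/PR10a, 24.6 FPKM for WRKY45, 10.8 FPKM for PR10b, 3.97 FPKM for WRKY62, 3.34 FPKM for WRKY76 and 1.47 FPKM for NPR1. PBZ1/PR10a lay above 94.3% of the 18270 tested genes by mean level, and NPR1 above 6.9% of them.

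The question was whether any regulator or PR gene differed between overexpressor and wild-type leaves. A gene was tested when it reached 1 FPKM in at least 3 of the 6 libraries, which all 6 genes did. Differences are DGP1-OE1 minus ZH11 on the log2(FPKM + 1) scale, which understates the change of low genes. They come from a limma fit over all tested genes, with Benjamini-Hochberg adjustment over all of them. At an adjusted p of 0.05 the fit called 0 of the 6 genes higher, against 0.159% of all tested genes, and 0 lower, against 0.197%, or 0.356% in both directions. At an unadjusted p of 0.05 it counted 1 of the 6, WRKY76, which was lower, against 4.26% of all tested genes lower and 8.8% in both directions. All 6 differences were negative, between -1.65 and -0.16, with a median of -0.31 against -0.01 over all tested genes. These 6 signs are not separate pieces of support, because the genes share libraries. For NPR1, PBZ1/PR10a and PR10b the sign turned when single libraries were left out.

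**Figure D1:**
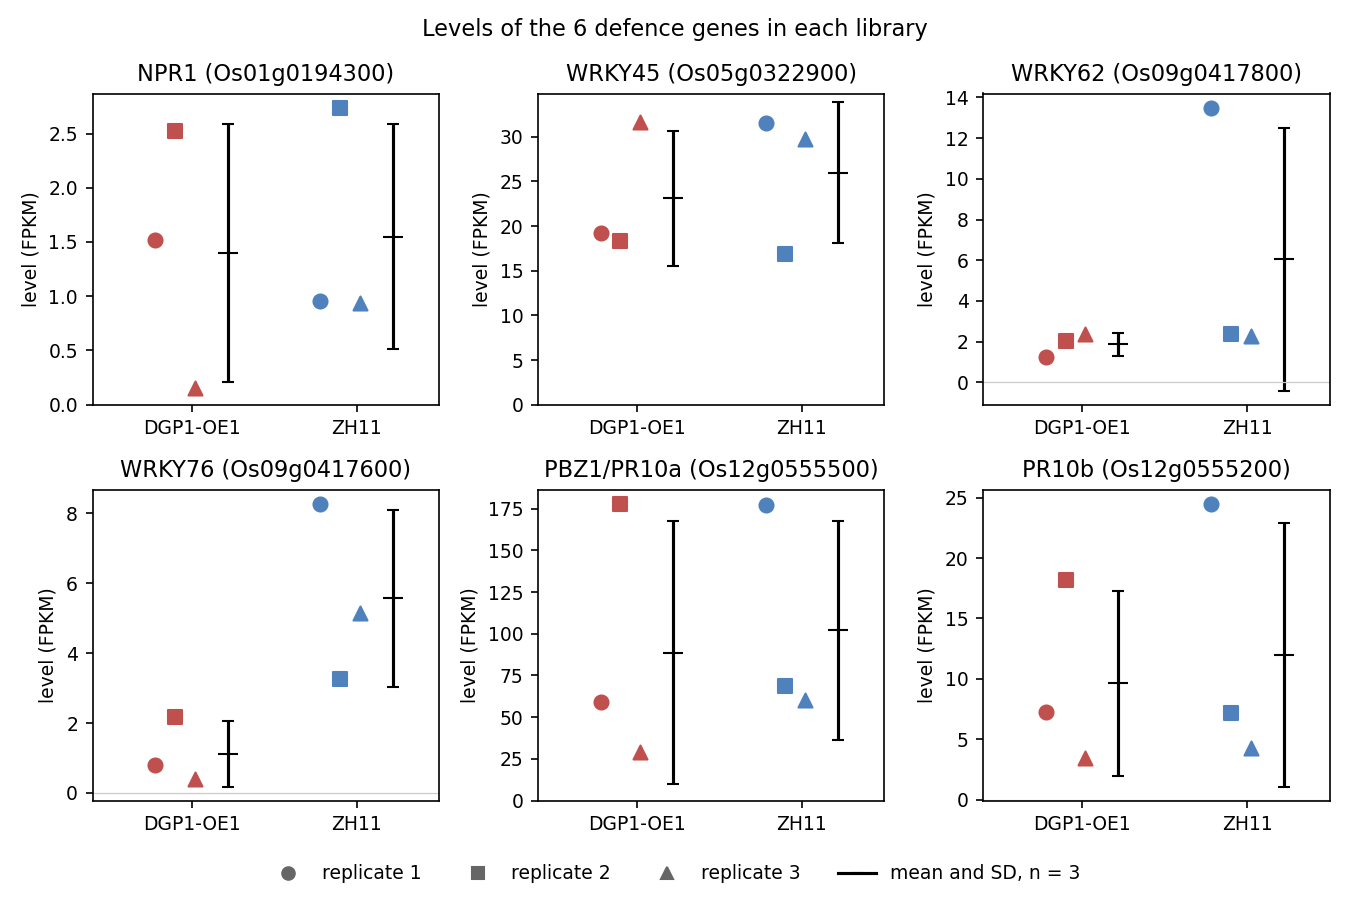
Levels of the 6 genes in FPKM on linear axes that include 0, one panel per gene, with DGP1-OE1 on the left and ZH11 on the right. Symbols mark replicates and black bars the mean with its SD (n = 3); the groups overlap in every panel except that of WRKY76.

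NPR1 had the lowest mean of the set over all 6 libraries, although in DGP1-OE1 alone WRKY76 averaged less, at 1.12 FPKM against 1.4 FPKM for NPR1. In DGP1-OE1 replicates 1, 2 and 3 it held 1.52, 2.52 and 0.154 FPKM, against 0.959, 2.74 and 0.937 FPKM in ZH11. Replicate 2 was the highest library in both genotypes, DGP1-OE1 replicate 3 was the lowest of all, and the groups overlapped. The means were 1.4 ± 1.19 FPKM in DGP1-OE1 and 1.55 ± 1.04 FPKM in ZH11 (SD, n = 3 each). The log2 difference was -0.16 with an SE of 0.491 and a 95% interval of -1.24 to 0.92 (limma, adjusted p = 0.962). It was 0.3 without DGP1-OE1 replicate 3 and 0.16 without ZH11 replicate 2, so its sign rests on single libraries.

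WRKY45 varied least. Its levels were 19.2, 18.3 and 31.7 FPKM in DGP1-OE1 and 31.5, 16.9 and 29.7 FPKM in ZH11. Both genotypes held high and low libraries, and the highest library was only 1.87 times the lowest. DGP1-OE1 averaged 23.1 ± 7.52 FPKM and ZH11 26 ± 7.93 FPKM (SD, n = 3 each). This gene had the narrowest interval of the 6, from -0.82 to 0.49 around a log2 difference of -0.16 (SE 0.297; limma, adjusted p = 0.931). The interval does not reach a change of 1 log2 unit in either direction. As each library was left out the difference ran from -0.43, without ZH11 replicate 2, to -0.01, without ZH11 replicate 1, and it was -0.41 without DGP1-OE1 replicate 3 (limma, adjusted p between 0.641 and 0.998).

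WRKY76 was the 1 gene whose genotypes did not overlap. DGP1-OE1 replicates 1, 2 and 3 held 0.791, 2.17 and 0.389 FPKM, against 8.27, 3.26 and 5.15 FPKM in the ZH11 replicates. Each overexpressor library lay below each wild-type library, with the narrowest gap between the 2 libraries numbered 2. Such separation with DGP1-OE1 lower was seen for 7.19% of all tested genes. The means were 1.12 ± 0.935 FPKM in DGP1-OE1 and 5.56 ± 2.53 FPKM in ZH11 (SD, n = 3 each), a ratio of 0.201. On the log2 scale the difference was -1.65 with an SE of 0.431 and an unadjusted 95% interval of -2.6 to -0.7. It did not pass the adjustment (limma, unadjusted p = 0.00285, adjusted p = 0.22), and the gene ranked 237 among the tested genes by p. An exact permutation test of the 3 against 3 libraries gave a two-sided p of 0.1, the smallest this design allows. Any gene without overlap receives this p, so it restates the separation and adds nothing to it. WRKY76 entered the test through all 3 ZH11 libraries and 1 DGP1-OE1 library at or above 1 FPKM, so it was tested mainly through the genotype in which it was higher. The difference ran from -1.98 to -1.36 as each library was left out, with adjusted p between 0.116 and 0.75, and was -2.41 with a pseudocount of 0.1 (limma, adjusted p = 0.318). Over all 14 other fits in which WRKY76 was tested, its adjusted p lay between 0.103 and 0.75.

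WRKY62 showed its higher wild-type mean through 1 library. Its levels were 1.26, 2.02 and 2.37 FPKM in DGP1-OE1 and 13.5, 2.38 and 2.28 FPKM in ZH11. ZH11 replicate 1 stood apart from the other 5 libraries, which lay together between 1.26 and 2.38 FPKM. DGP1-OE1 averaged 1.88 ± 0.571 FPKM and ZH11 6.06 ± 6.46 FPKM (SD, n = 3 each). The log2 difference was -0.94 with an SE of 0.54 and an interval of -2.12 to 0.25 (limma, adjusted p = 0.676). Without ZH11 replicate 1 it was -0.23 (limma, adjusted p = 0.977).

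In the RefSeq rice gene table (assembly ASM3414082v1), matched by gene name, WRKY76 and WRKY62 are neighbours on chromosome 9, with 0 protein-coding genes between them. Both were highest in ZH11 replicate 1, but they did not keep 1 proportion. The level of WRKY62 divided by that of WRKY76 was 1.59, 0.931 and 6.09 in DGP1-OE1 and 1.63, 0.731 and 0.442 in ZH11, a spread of 13.8 times. The top of this spread, 6.09, came from DGP1-OE1 replicate 3, where WRKY76 stood at only 0.389 FPKM. In the other libraries the ratio lay between 0.442 and 1.63. An exact permutation test on the log2 ratio, chosen after the values were seen, gave a difference of 1.36 log2 units and a two-sided p of 0.3. The ratios overlapped between genotypes, so a separate behaviour of the 2 genes was not shown.

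**Figure D2:**
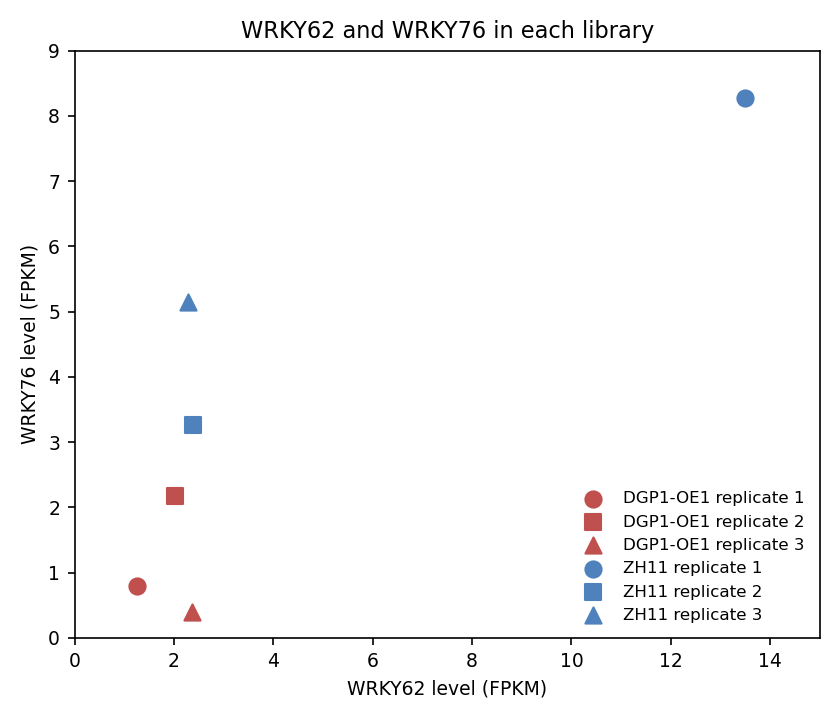
WRKY62 (horizontal, FPKM) against WRKY76 (vertical, FPKM), 1 point per library on linear axes from 0. The DGP1-OE1 points sit at 0.389 to 2.17 FPKM of WRKY76, below the ZH11 points at 3.26 to 8.27 FPKM, while only ZH11 replicate 1 is far to the right, at 13.5 FPKM of WRKY62.

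The 2 PR10 genes varied widely within both genotypes. DGP1-OE1 replicates 1, 2 and 3 held 58.9, 178 and 29 FPKM of PBZ1/PR10a, against 177, 68.4 and 60.1 FPKM in ZH11. One library of each genotype reached nearly the same high level, DGP1-OE1 replicate 2 and ZH11 replicate 1, and the groups overlapped. The means were 88.7 ± 79 FPKM in DGP1-OE1 and 102 ± 65.5 FPKM in ZH11 (SD, n = 3 each). The SD on the log2(FPKM + 1) scale was 1.3 in DGP1-OE1 and 0.84 in ZH11, larger in both than the difference of -0.41 (SE 0.568, interval -1.66 to 0.84; limma, adjusted p = 0.905). Without DGP1-OE1 replicate 2 it was -1.1 (limma, adjusted p = 0.465), without DGP1-OE1 replicate 3 it was 0.18, and without ZH11 replicate 1 it was 0.07.

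PR10b followed the same libraries at a lower level. It held 7.29, 18.2 and 3.42 FPKM in DGP1-OE1 and 24.5, 7.16 and 4.32 FPKM in ZH11. Again DGP1-OE1 replicate 2 and ZH11 replicate 1 were the 2 highest libraries and DGP1-OE1 replicate 3 the lowest. The means were 9.63 ± 7.66 FPKM in DGP1-OE1 and 12 ± 10.9 FPKM in ZH11 (SD, n = 3 each), with a log2 difference of -0.22, an SE of 0.604 and an interval of -1.55 to 1.11 (limma, adjusted p = 0.957). The difference was -0.77 without DGP1-OE1 replicate 2, -0.7 without ZH11 replicate 3, 0.29 without DGP1-OE1 replicate 3 and 0.43 without ZH11 replicate 1.

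**Figure D3:**
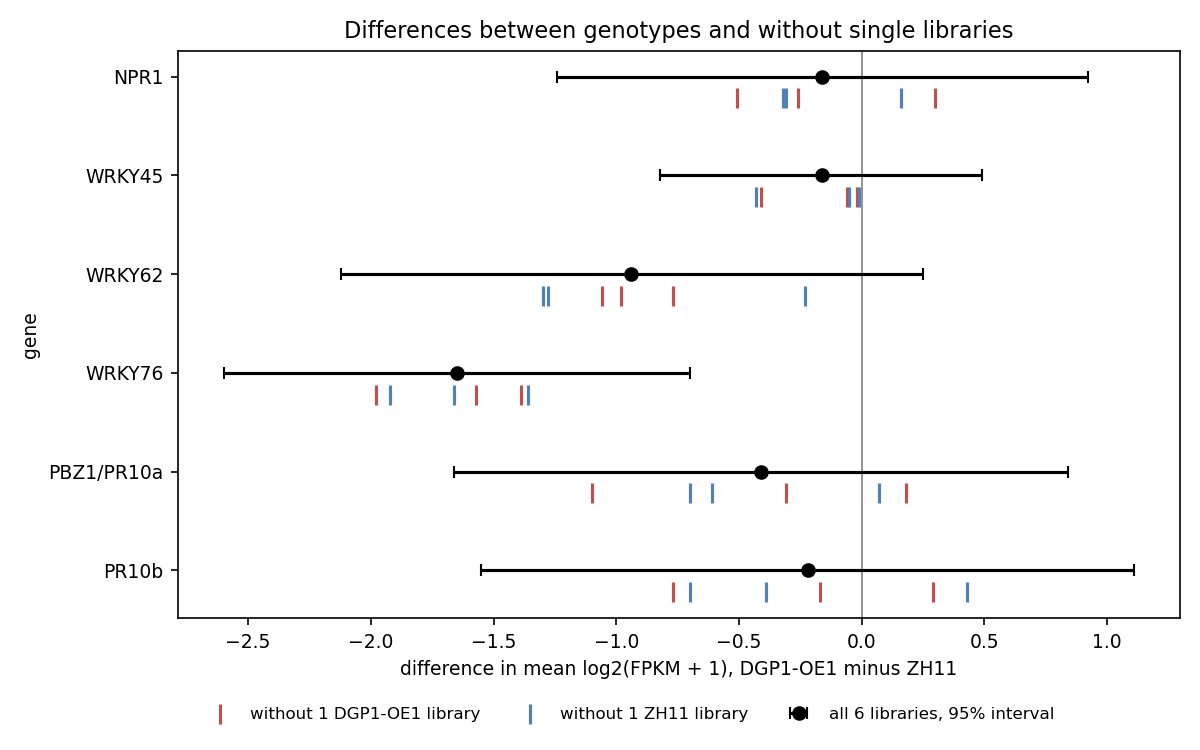
Difference in mean log2(FPKM + 1), DGP1-OE1 minus ZH11, for the 6 genes. Black points and bars are the fit of all 6 libraries with its unadjusted 95% interval, and ticks under each are the fits without 1 DGP1-OE1 library (red) or 1 ZH11 library (blue); the interval of WRKY76, -2.6 to -0.7, is the one that leaves out 0, and the ticks of NPR1 and both PR10 genes fall on both sides of 0.

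The ratio of the PR10 genes moved less from library to library than either level. PBZ1/PR10a divided by PR10b was 8.08, 9.8 and 8.47 in DGP1-OE1 and 7.24, 9.55 and 13.9 in ZH11. This ratio spread over 1.92 times, where PBZ1/PR10a itself spread over 6.15 times and PR10b over 7.16 times. The mean log2 ratio was 3.13 in DGP1-OE1 and 3.3 in ZH11, a difference of -0.17 (exact permutation test, two-sided p = 0.7). With the WRKY pair this made 2 ratio tests, with adjusted p of 0.7 here and 0.6 there. PR10 genes are similar in sequence, and how the authors assigned reads between such copies is not given in the sources used here, so part of 1 gene's reads may have been counted for another.

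Likeness between genes was measured as the root mean square difference of log2(FPKM + 1) profiles over the 6 libraries, after each profile was set to mean 0. PR10b was the third nearest of the 18269 other tested genes to PBZ1/PR10a, at 0.27, and PBZ1/PR10a was the third nearest to PR10b. Nearest to PBZ1/PR10a were 2 rows with NewGene IDs, at 0.2 and 0.225. Nearest to PR10b were Os03g0219450, at 0.233, and Os12g0555000, at 0.241. The other genes of the set had no fellow so close. WRKY62 and WRKY76 lay 0.702 apart, and WRKY76 ranked 846 among the genes nearest to WRKY62. NPR1's closest fellow was PBZ1/PR10a, at 0.769, which ranked 14648. This measure depends on how widely a gene varied as well as on its pattern. The SD over the 6 libraries was 0.632 for NPR1 and 1.01 for PBZ1/PR10a.

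Nearest to WRKY62 were Os03g0103300, at 0.255, and Os12g0559200, at 0.287. Os12g0559200 stood at 28.6, 21.1 and 30.3 FPKM in DGP1-OE1 and 125, 27.5 and 22.6 FPKM in ZH11, high like WRKY62 in ZH11 replicate 1 alone. For WRKY76 they were a NewGene row and Os02g0182850, both at 0.257. Os02g0182850 stood at 1.9, 3.07 and 0.975 FPKM in DGP1-OE1 and 8.7, 3.7 and 4.98 FPKM in ZH11, without overlap, and it was not called either (limma, adjusted p = 0.391). It was picked for its likeness to WRKY76, so its separation is no further support. Nearest to NPR1 were Os04g0485400, at 0.0915, and Os07g0281800, at 0.0926. WRKY45 varied too little for this comparison. Among 18269 genes and 6 libraries such near profiles describe these libraries only.

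By ID order, PR10b and PBZ1/PR10a lie in a stretch of 5 consecutive rows on chromosome 12, and 4 of these rows peaked in the same 2 libraries. The stretch is given in full because of that pattern, which was seen in the data. Os12g0555000 stood at 21.9, 51 and 9.88 FPKM in DGP1-OE1 and 103, 19.9 and 13.3 FPKM in ZH11. Os12g0555300 stood at 3.62, 14.2 and 0.222 FPKM in DGP1-OE1 and 16.4, 3.06 and 1.95 FPKM in ZH11. Both were highest in ZH11 replicate 1, next highest in DGP1-OE1 replicate 2 and lowest in DGP1-OE1 replicate 3, the order PR10b showed. The row between Os12g0555300 and PBZ1/PR10a, Os12g0555400, did not follow them. It held 6.02, 6.72 and 6.41 FPKM in DGP1-OE1 and 5.53, 4.96 and 8.69 FPKM in ZH11, a range of 0.7 log2 units against 2.53 to 3.83 for the other four. None of the 5 rows was called between the genotypes (limma, adjusted p between 0.905 and 0.989).

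**Figure D4:**
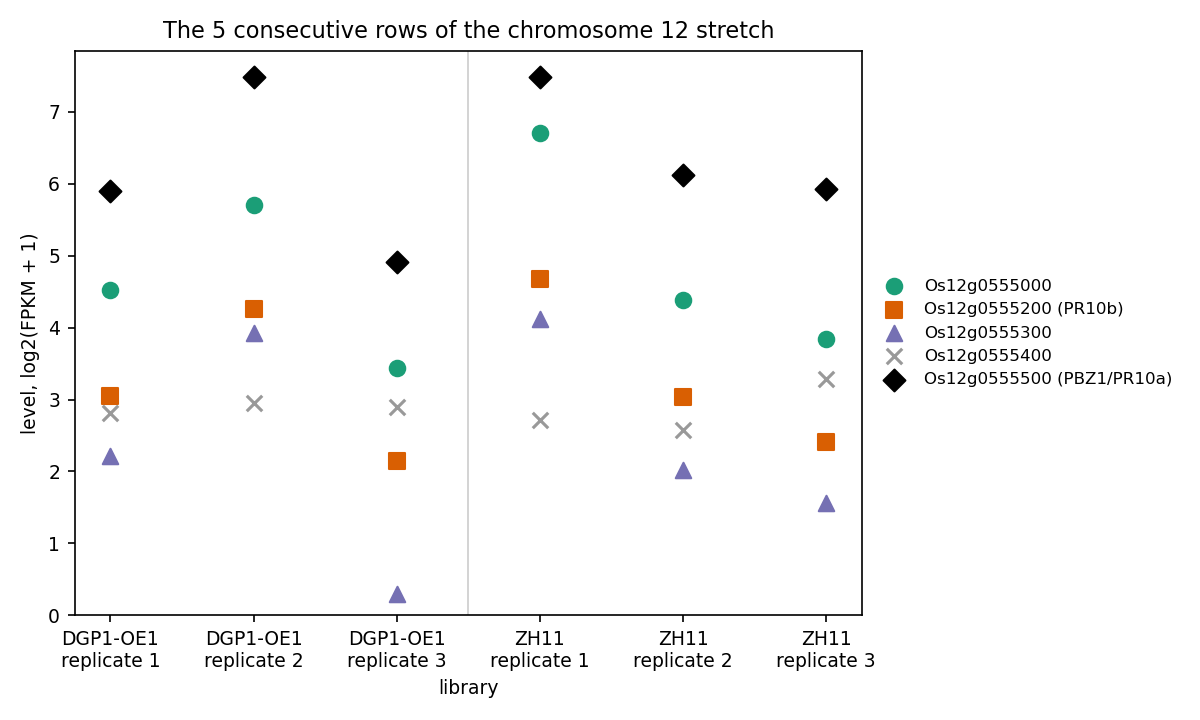
Levels, as log2(FPKM + 1) on an axis from 0, of 5 consecutive rows on chromosome 12 in each library, DGP1-OE1 left of the grey line and ZH11 right of it. Os12g0555000, PR10b, Os12g0555300 and PBZ1/PR10a are high in DGP1-OE1 replicate 2 and ZH11 replicate 1 and lowest in DGP1-OE1 replicate 3, while Os12g0555400 (crosses) stays between 2.58 and 3.28.

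Single libraries marked several of the 6 genes at once. ZH11 replicate 1 held the highest level of WRKY62, WRKY76 and PR10b and nearly the highest of PBZ1/PR10a. DGP1-OE1 replicate 3 held the lowest level of NPR1, WRKY76, PBZ1/PR10a and PR10b, and the highest of WRKY45. That library also had the most rows listed at 0, 637, and the lowest median, 6.69 FPKM, against 56 to 378 rows and 7.17 to 8.29 FPKM in the other libraries. Whether this has a part in the low values was not tested. From leaf RNA in bulk, fewer cells that express a gene and less of its RNA per cell cannot be told apart. The spread within genotypes, as the residual SD on the log2(FPKM + 1) scale, had a median of 0.796 over the 6 genes and of 0.366 over all tested genes. It was 1.1 for PBZ1/PR10a, 1.12 for PR10b, 0.893 for WRKY62, 0.7 for NPR1, 0.586 for WRKY76 and 0.448 for WRKY45.

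The wider defence pathway was looked at through 24 other locus IDs, listed from general knowledge of rice receptors, kinases, salicylate genes, WRKY factors and PR proteins. Neither the FPKM table nor the RefSeq gene table names any of these IDs, so most are given by count. Os12g0555000, described above beside PR10b, is one of them, so the list is not separate from those rows. Of the 24, 23 have a row and 21 were tested. The limma fit called 0 higher, against 0.159% of all tested genes, and 0 lower, against 0.197%. At an unadjusted p of 0.05 it counted 1 higher, against 4.53% of all tested genes, and 3 lower, against 4.26%. Their log2 differences had a median of -0.05, against -0.01 over all tested genes, with 9 positive and 12 negative. The smallest adjusted p was 0.338, for Os07g0129300, which had the most negative difference, -3.04. It stood at 0.526, 4.61 and 0 FPKM in DGP1-OE1 and 11.4, 91.3 and 3.17 FPKM in ZH11, with overlapping groups. Like WRKY76, it was tested mainly through ZH11, the genotype in which it was higher. Without overlap were 1 higher locus, against 6.72% of all tested genes, and 3 lower ones, against 7.19%. The higher one, Os03g0285800, held 6.53, 4.77 and 5.72 FPKM in DGP1-OE1 and 2.97, 3.01 and 1.51 FPKM in ZH11 (limma, log2 difference 0.96, adjusted p = 0.407). The 3 lower ones had log2 differences of -0.58, -0.5 and -0.25 (limma, adjusted p = 0.417, 0.566 and 0.862). Os07g0129300 and Os03g0285800 were named after their values were seen.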

How the data were processed

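RNA from rice leaves was sequenced in 3 DGP1-OE1 and 3 ZH11 libraries. The authors deposited FPKM for 19696 rows, with no counts. HISAT2 2.0, StringTie 1.3.0 and Bowtie 0.12.2 are named, with no role or order, in the submitters' processing notes. These notes name the build mm8, a mouse build that does not go with rice locus IDs; the rice annotation is not given in the sources used here. Groups and replicate numbers came from the sample titles, and columns headed DGP1-OE were taken as DGP1-OE1, the only overexpressor. No step worth 1 read was found among low values (at most 3.7% of genes under 0.5 FPKM shared 1 ratio within 0.02 log2 units), so depth is unknown and no counting interval is given. Gene names came with the list of IDs; 0 table IDs matched the RefSeq gene table.

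Genes with at least 1 FPKM in at least 3 libraries were fitted as log2(FPKM + 1) with limma 3.58.1 (R 4.3.3), with an intensity trend, two-sided tests and Benjamini-Hochberg adjustment at 0.05. The script was tested on simulated data, with changes placed only in genes of mean above 3 on this scale. NPR1, WRKY62 and WRKY76 lie below that mean. It recovered 38.8% of changes of 1 log2 unit and 100% of those of 2 or 4 units, and 20 of its 179 calls were false. The members and lists were chosen with earlier results of these data known. Beyond the 9 listed IDs, the text names the 2 nearest profiles of each gene with an SD of at least 0.5 log2 units over the 6 libraries, and any called gene among neighbouring rows within 3 places (there was none) or in the wider list (none either). Outside this rule, Os12g0555300, Os12g0555400, Os07g0129300 and Os03g0285800 were named after their values were seen. The alternatives changed the pseudocount (0.1), the filter (none, or 5 FPKM), the scaling (library totals, median of ratios, quantiles) or the moderation (robust, or without the trend), added a replicate block, or left out 1 library.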

Additional observations from a re-analysis of the deposited data

How the results depend on the processing

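None of the 6 genes was called in any of the 15 other fits. The main fit itself called only 0.356% of all tested genes. NPR1, WRKY62 and WRKY76 were not tested with a filter at 5 FPKM. Without single libraries the counts over all tested genes, 29 higher and 36 lower, became 16 to 39 and 9 to 42. The lower genes numbered 21 at the pseudocount of 0.1 and 14 when the intensity trend was dropped. Differences turned positive only without single libraries: for NPR1 0.3 without DGP1-OE1 replicate 3 and 0.16 without ZH11 replicate 2, for PBZ1/PR10a 0.18 without DGP1-OE1 replicate 3 and 0.07 without ZH11 replicate 1, and for PR10b 0.29 and 0.43 in the same fits. Over the fits without 1 library the differences ran from -0.51 to 0.3 for NPR1, from -1.1 to 0.18 for PBZ1/PR10a and from -0.77 to 0.43 for PR10b. The cause was not tested. Deviations of same-numbered libraries from their group means correlated at 0.016, 0.38 and 0.14, and the labels do not pair them. Differently numbered libraries of the 2 genotypes correlated between -0.28 and 0.21, so the ranges overlapped. Deviations from a group mean add up to 0, so the 2 ranges are tied to each other and cannot decide whether libraries were paired. A replicate block gave 130 higher and 139 lower genes, 0 of the 6 genes were called (WRKY76, adjusted p = 0.103), and 1 of the wider list was, Os07g0129300 (limma, log2 difference -3.04, adjusted p = 0.00183; between 0.142 and 0.75 in every fit without the block that tested it). Os07g0129300 entered the test mainly through ZH11, in which it was higher, so this call is no support for a difference. With depth unknown, low values such as those of NPR1 and WRKY76 have no counting error attached.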
